A study of Bos taurus with 8 samples.

Results

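The microRNA miR-21 was followed through both of its arms, the guide arm miR-21-5p (bta-miR-21-5p in the files) and the passenger arm miR-21-3p (bta-miR-21-3p), which are 2 of the 763 bovine miRNAs on the array. The members were chosen by name, from the name each probe carries in the array annotation and in the deposited value table. Mammary tissue came from 4 Limousin heifers, a beef breed, and 4 Holstein-Friesian heifers, a dairy breed, and each animal's RNA was read on its own one-colour Agilent miRNA array. The animals of both breeds were healthy, non-pregnant and free of clinical mastitis, and no treatment is named for either breed. Their age is given as 20 months by one label and as 2 years by the protocol, and the replicates are described as biological.

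A miRNA precursor is a hairpin, and the enzyme Dicer cuts it into a short duplex of a 5p and a 3p strand. One strand, the guide, is usually loaded into Argonaute and pairs with target messenger RNAs through its seed near the 5′ end, while the passenger strand is mostly degraded. In human and mouse tissues miR-21-5p is among the most abundant miRNAs, is induced through STAT3 in inflammation, and is known to repress PDCD4, a restraint on growth.

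The array read the guide arm with 4 nested DNA probes and the passenger arm with 2, and they are shown because each breed difference below was measured through one of them. All bases of the shortest probe of an arm are in lower case, and the capitals mark what a longer probe adds.
miR-21-5p, 17 bases: agtcaacatcagtctga
miR-21-5p, 18 bases: agtcaacatcagtctgaT
miR-21-5p, 19 bases: agtcaacatcagtctgaTA
miR-21-5p, 20 bases: agtcaacatcagtctgaTAA
miR-21-3p, 14 bases: agacagcccatcga
miR-21-3p, 15 bases: agacagcccatcgaC

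Read as RNA from 5′ to 3′, the stretch of the guide arm that pairs with its longest probe is the reverse complement of that probe, with the bases that only the longer probes reach in capitals.
Guide arm stretch: UUAucagacugauguugacu
Passenger arm stretch: Gucgaugggcugucu

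The GC content of the miR-21-5p probes fell with length, at 41.2%, 38.9%, 36.8% and 35% for 17, 18, 19 and 20 bases. The miR-21-3p probes held 57.1% GC at 14 bases and 60% at 15 bases. The array annotation gives all 6 probes 2 positions each on chromosome 19 of build UMD 3.1. The longest probe of miR-21-5p lies at chr19:10049144-10049163 and that of miR-21-3p at chr19:10049186-10049200. The second set of positions, at chr19:11033083-11033102 and chr19:11033125-11033139, has the same spacing 983939 bases further along, and the array reads both positions as one signal. In the RefSeq gene table of the ARS-UCD2.0 assembly, MIR21 has 1 entry on chromosome 19, between VMP1, an autophagy gene, and TUBD1, which encodes delta tubulin, and its span overlaps no other gene of that table. The longest run of bases that the 20-base probe shares with any of the 1651 probes of other miRNAs was 9, with a probe of miR-2298, and for the 15-base probe it was 7.

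The arrays of the breeds differed in the brightness of their miRNA probes. The mean log2 signal of the spike-in controls was 12.67 to 12.78 on Limousin and 12.58 to 12.80 on Holstein-Friesian arrays. Whether the gap comes from the RNA or from the arrays was not tested. The 75th percentile of the probes detected on all 8 arrays was 943.0 to 1579 in Limousin and 557.2 to 939.3 in Holstein-Friesian, and signals were divided by it. Between 31.8% and 35.5% of spots were well above background on Limousin arrays and between 28.6% and 31.7% on Holstein-Friesian arrays, and 0 spots were saturated. All 8 arrays were on 1 slide and read in 1 scan, with the breeds in different position indices, and effects of breed and of slide position cannot be told apart. A miRNA was tested where every array of either breed, or of both, detected it, and of 269 such miRNAs 37 were higher and 76 (28.3%) lower in Limousin (limma, Benjamini-Hochberg adjusted p under 0.05). With 4 arrays a breed, precision is limited by their number.

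The guide arm miR-21-5p was higher in Limousin than in Holstein-Friesian mammary tissue, by 1.75-fold, a call that ended when the GC content and length of the probes were corrected for (log2 difference 0.41; limma adjusted p = 0.0980). On its 20-base probe, the brightest of the 4 on average and the one used for the miRNA, the scaled log2 signal was 10.57, 10.80, 10.33 and 10.52 in Limousin replicates 1 to 4. It was 9.21, 9.76, 9.83 and 10.18 in Holstein-Friesian replicates 1 to 4. All 4 Limousin arrays lay above all 4 Holstein-Friesian arrays, with the narrowest gap between Limousin replicate 3 and Holstein-Friesian replicate 4. The breeds failed to overlap for 36.8% of the tested miRNAs, and for 16.0% with Limousin above. The means were 10.56 ± 0.19 in Limousin and 9.75 ± 0.40 in Holstein-Friesian (SD, n = 4 each), a log2 difference of 0.81 with a 95% confidence interval of 0.37 to 1.24 (limma adjusted p = 0.0102). As a fold the interval was 1.30 to 2.37. Of all tested miRNAs 42.0% passed the threshold, and 13.8% passed it with Limousin higher. By size of the difference, miR-21-5p stood ninth of 269 from the Limousin side (rank 9). In bulk tissue a change in the number of cells of a type and a change in RNA per cell cannot be told apart.

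**Figure D1:**
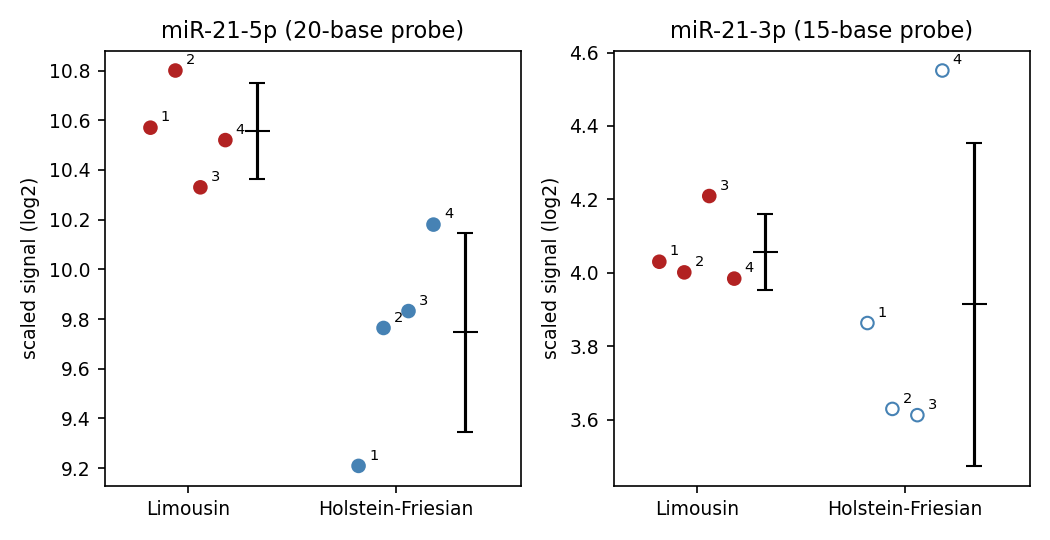
Scaled log2 signal on each of the 8 arrays for the 20-base probe of miR-21-5p (left panel) and the 15-base probe of miR-21-3p (right panel), Limousin left of Holstein-Friesian. Points are animals with their replicate number, filled where the probe was detected and open where it was not, and bars give the mean ± SD of 4 arrays; the breeds part for miR-21-5p (10.33 to 10.80 against 9.21 to 10.18) and overlap for miR-21-3p.

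Before scaling, the 20-base probe gave 1865, 2927, 1266 and 1899 intensity units in Limousin replicates 1 to 4. In Holstein-Friesian replicates 1 to 4 it gave 388.4, 504.0, 890.8 and 749.7 units. The unscaled signals also parted the breeds, by a log2 difference of 1.66, as they did with Limousin above for 39.4% of the tested miRNAs. Without scaling the median of all tested miRNAs was itself 0.79 higher in Limousin and 63.9% of the miRNAs passed as higher. Relative to that median the difference of miR-21-5p was 0.87, both with the scaling used and with none. These had to be equal, since 1 factor per array shifts miR-21-5p and the median alike. Relative to the median of each setting the difference was 0.75 with quantile normalization and 0.73 with cyclic loess. It was 1.15 with normexp and 1.13 without background correction. The spots of this probe varied little within an array, with a coefficient of variation of 2.75% to 9.63% on Limousin arrays and 2.67% to 3.78% on Holstein-Friesian arrays.

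All 4 probes of miR-21-5p gave differences of nearly the same size. The log2 difference was 0.74 on the 17-base probe (95% confidence interval 0.30 to 1.18; limma adjusted p = 0.0147 over 492 probes). It was 0.80 on the 18-base probe (0.38 to 1.21; limma adjusted p = 0.0088) and 0.78 on the 19-base probe (0.35 to 1.22; limma adjusted p = 0.0111). It was 0.81 on the 20-base probe (0.38 to 1.24; limma adjusted p = 0.0097). Each was well above background on 4 of 4 Limousin and 4 of 4 Holstein-Friesian arrays, with 100% of its spots, and 14.0% of all tested probes passed as higher in Limousin. The probes share all 17 bases of the shortest and are no replicates of each other. On the 17-base probe the breeds nearly touched, at a lowest Limousin value of 7.24 in replicate 4 and a highest Holstein-Friesian value of 7.23 in replicate 4. The log2 ratio of the 20-base over the 17-base probe within an array was 3.04 ± 0.22 in Limousin and 2.97 ± 0.022 in Holstein-Friesian (SD, n = 4 each). That ratio differed by 0.069 between the breeds, which is within the spread of the Limousin arrays (two-sided exact permutation test, p = 0.60).

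**Figure D2:**
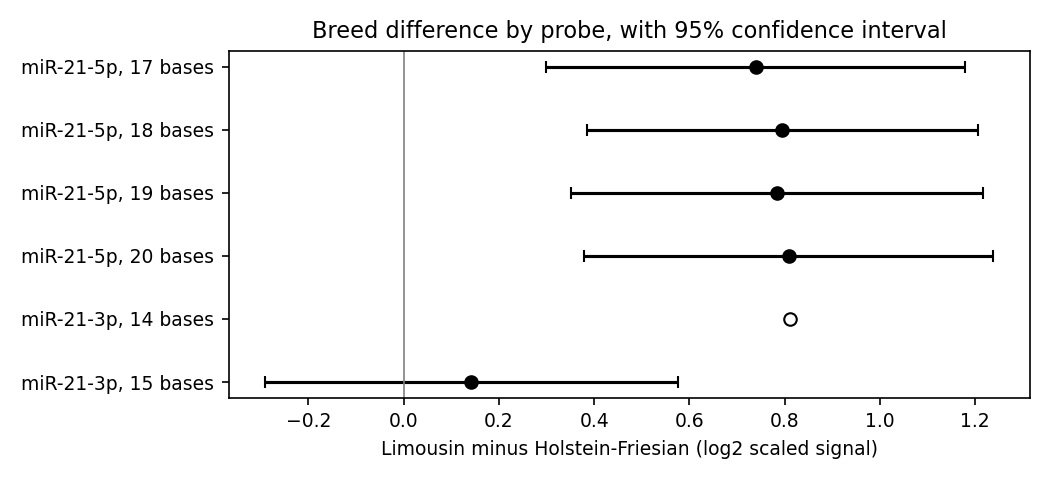
Log2 difference of the scaled signal, Limousin minus Holstein-Friesian, for each of the 4 probes of miR-21-5p and the 2 of miR-21-3p, with the 95% confidence interval of the limma fit over 492 probes. The open point, the 14-base probe of miR-21-3p, was below background on all 8 arrays and was not tested; the miR-21-5p probes lie between 0.74 and 0.81, and the 15-base probe of miR-21-3p at 0.14.

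Across the array the breed difference of a miRNA went with the length of its probe. Among the 24 tested miRNAs read by a 20-base probe the median log2 difference was 0.26 and 10, or 41.7%, were called higher in Limousin, while 0 were called lower by limma (also 0 at an unadjusted p under 0.05). Among these 24, miR-21-5p had the fourth largest difference (rank 4). Among the 26 miRNAs read by a 15-base probe, as miR-21-3p was, the median was -0.43, with 0 called higher (1 at an unadjusted p under 0.05) and 14 lower. After each array was corrected for the GC content and length of the probes, the miR-21-5p signal was 10.25, 10.66, 10.24 and 10.28 in Limousin replicates 1 to 4 and 9.65, 9.74, 9.94 and 10.46 in Holstein-Friesian replicates 1 to 4. Holstein-Friesian replicate 4 then lay within the Limousin range, and the other 3 lay below it. The corrected log2 difference was 0.41, with a 95% confidence interval of 0.016 to 0.81, and no longer passed the threshold (limma adjusted p = 0.0980), while 9.67% of the tested miRNAs passed as higher in Limousin after that correction. How much of the 0.81 belongs to the probe and how much to the tissue was not tested.

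**Figure D3:**
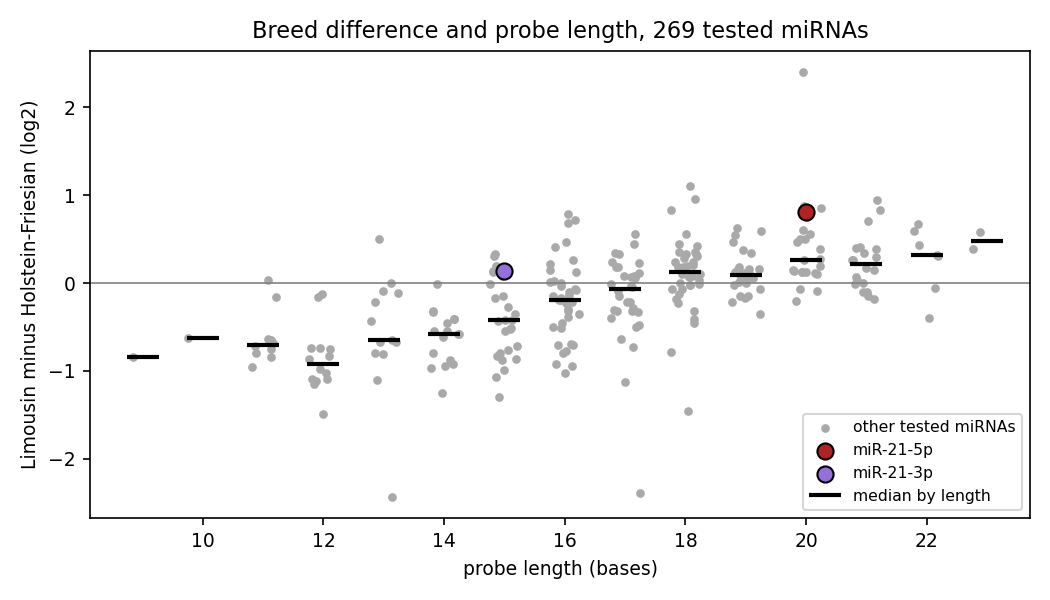
Log2 difference, Limousin minus Holstein-Friesian, of the 269 tested miRNAs (1 point each, spread sideways at random within a length) against the length in bases of the probe that represents them, with the median at each length as a bar. The medians are below 0 for the shorter probes and above 0 for the longer ones; miR-21-5p lies at 20 bases and 0.81 above a median of 0.26, and miR-21-3p at 15 bases and 0.14 above a median of -0.43.

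The passenger arm miR-21-3p was near the limit of detection. On its 15-base probe the share of spots well above background was 73.3%, 100%, 71.4% and 78.6% in Limousin replicates 1 to 4. It was 0%, 0%, 0% and 18.5% in Holstein-Friesian replicates 1 to 4. The criterion for detection was over 50% of a probe's spots above background by that flag. It was met on 4 of 4 Limousin and on 0 of 4 Holstein-Friesian arrays, and the shares did not overlap. No test of the shares is given, because miR-21-3p was among the tested miRNAs only through these shares on Limousin arrays. Limousin arrays detected more miRNAs in all, 271 to 297 against 243 to 267 on Holstein-Friesian arrays. Detection on 4 Limousin and 0 Holstein-Friesian arrays was found for 9 of the 269 tested miRNAs (3.35%), miR-21-3p among them, and the opposite for 1 (0.372%). The shares of spots parted with Limousin above for 6.69% of the tested miRNAs. The scanner software's own call listed miR-21-3p as detected on 4 of 4 Limousin arrays and on 1 Holstein-Friesian array, replicate 4.

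The level of miR-21-3p did not follow its detection. The scaled log2 signal of the 15-base probe was 4.03, 4.00, 4.21 and 3.98 in Limousin replicates 1 to 4. It was 3.86, 3.63, 3.61 and 4.55 in Holstein-Friesian replicates 1 to 4. The highest value of all 8 arrays thus came from a Holstein-Friesian array on which the probe was not detected, and the breeds overlapped. The means were 4.06 ± 0.10 in Limousin and 3.91 ± 0.44 in Holstein-Friesian (SD, n = 4 each), a log2 difference of 0.14 with a 95% confidence interval of -0.30 to 0.58 (limma adjusted p = 0.603). Neither the p-value nor the interval can decide whether the level differs. The fit included miR-21-3p only through its detection on Limousin arrays, and it was detected on 0 of 4 Holstein-Friesian arrays. The lowest scaled signal among detected probes was 3.39 to 4.08 (log2) on Limousin arrays and 4.33 to 4.90 on Holstein-Friesian arrays, so that the level at which a probe could be detected was higher in Holstein-Friesian after scaling. Against that limit no fold can be given for miR-21-3p, because the Limousin mean of 4.06 lay under the Holstein-Friesian limit, which averaged 4.71.

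Before scaling, the 15-base probe gave 20.0, 26.3, 18.1 and 20.5 intensity units in Limousin replicates 1 to 4. In Holstein-Friesian replicates 1 to 4 it gave 9.55, 7.17, 11.95 and 15.1 units. These unscaled signals did not overlap, as was the case with Limousin above for 39.4% of the tested miRNAs. Their log2 difference was 1.00, and relative to the median of all tested miRNAs it was 0.21. The 14-base probe had 0% of its spots well above background on every array. Its scaled log2 signal was 2.28 to 2.71 in Limousin and 1.33 to 2.02 in Holstein-Friesian, a difference of 0.81 that was not tested. Its spots varied by 33.5% to 55.5% (coefficient of variation) on Limousin arrays and by 95.2% to 197% on Holstein-Friesian arrays. The breed difference of miR-21-3p varied with the scaling and with the treatment of background. With spike-in scaling it was 0.94 (limma adjusted p = 0.0027), where the median of all tested miRNAs was 0.73. The difference of miR-21-3p was -0.59 with normexp background correction (limma adjusted p = 0.0065) and -0.58 with none (limma adjusted p = 0.0067). The medians of all tested miRNAs were themselves -0.38 and -0.36 there. The p-values of miR-21-3p in these settings cannot decide on a difference in level either, since its Holstein-Friesian signals were not detected. With values floored at the lowest detected probe of each array the difference was -0.66, which sets Limousin levels against the detection limits of the Holstein-Friesian arrays and is not a difference in level.

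**Figure D4:**
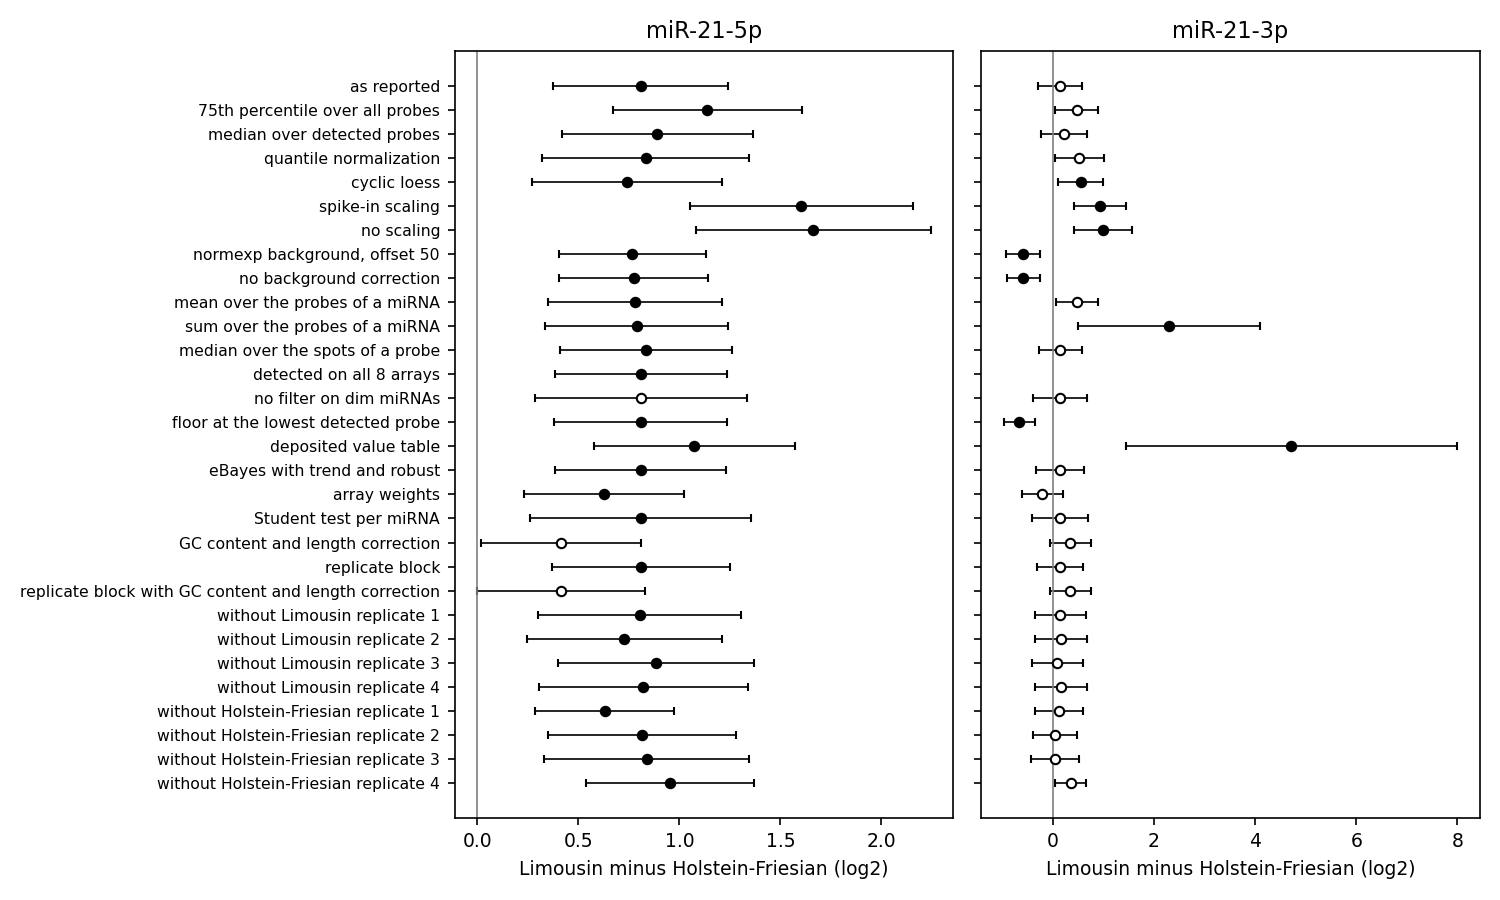
Log2 difference, Limousin minus Holstein-Friesian, with its 95% confidence interval for miR-21-5p (left) and miR-21-3p (right) as reported and under each alternative, from no scaling to leaving out single arrays. Filled points passed an adjusted p of 0.05 and open points did not; every value of miR-21-5p lies above 0, from 0.41 to 1.66, while miR-21-3p runs from -0.66, set by detection limits, to 4.72, set by placeholders. For miR-21-3p filled points decide nothing about level, since its Holstein-Friesian signals were not detected.

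The deposited value table carries its own scaling. Its log2 value for miR-21-5p was 3.96, 4.21, 3.81 and 3.84 in Limousin replicates 1 to 4, and 2.27, 2.97, 2.97 and 3.31 in Holstein-Friesian replicates 1 to 4. The difference was 1.07 (limma adjusted p = 0.0075) on a scale where the median of the tested miRNAs was 0.25. Of the 269 tested miRNAs 81 were called higher in Limousin on that scale and 28 lower. For miR-21-3p the table held -2.56, -2.57, -2.37 and -2.62 in Limousin replicates 1 to 4, and -8.84, -8.53, -9.32 and -2.32 in Holstein-Friesian replicates 1 to 4. The 3 lowest values are the table's placeholder for an undetected miRNA, and Holstein-Friesian replicate 4, the only measured one of its breed, was above all Limousin arrays. The difference of 4.72 that the table gives (limma adjusted p = 0.0299) is set by the placeholder and is not a level.

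The contrast of the arms was followed as the log2 signal of the 20-base probe of miR-21-5p minus that of the 15-base probe of miR-21-3p on the same array. Probes bind unequally, so the contrast is not a ratio of copies, but its change between breeds uses the same probes throughout. It was 6.54, 6.80, 6.13 and 6.53 in Limousin replicates 1 to 4 and 5.35, 6.13, 6.22 and 5.63 in Holstein-Friesian replicates 1 to 4. Limousin replicate 3 lay below the highest Holstein-Friesian arrays, and the other 3 lay above all of them. The mean was 6.50 ± 0.28 in Limousin and 5.83 ± 0.42 in Holstein-Friesian (SD, n = 4 each), a difference of 0.67 (95% confidence interval 0.16 to 1.17), which did not pass over the 15 miRNAs with both arms tested (limma adjusted p = 0.229; two-sided exact permutation test, p = 0.0857). Since miR-21-3p was not well above background in Holstein-Friesian, the contrast there rests on a signal with only an upper limit. The interval and the p-values therefore cannot decide whether the contrast changed. Corrected for probe GC content and length it was 0.064 (95% confidence interval -0.26 to 0.39; limma adjusted p = 0.834).

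Among the 15 arm pairs the change of the contrast in this fit was 0.67 for miR-21, 0.57 for miR-424, 0.30 for let-7a, 0.28 for miR-411c and -0.45 for miR-193a. These values are not ranked, since the 3p arm was detected on 0 of 4 Holstein-Friesian arrays for miR-21, on 3 for let-7a and on 1 for miR-411c. For that reason no p-value of the miR-21 pair decides whether its contrast changed. Of the 15 pairs 0, or 0.00%, passed limma's adjusted threshold, and 2, miR-21 and miR-193a, had an unadjusted p under 0.05; a test per pair without the moderated variance passed 0 after adjustment and 1 before it, miR-21. For miR-424 the breed difference was 0.55 for the 5p and -0.016 for the 3p arm, and its contrast spread widely over Holstein-Friesian arrays (SD 0.92, n = 4).

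**Figure D5:**
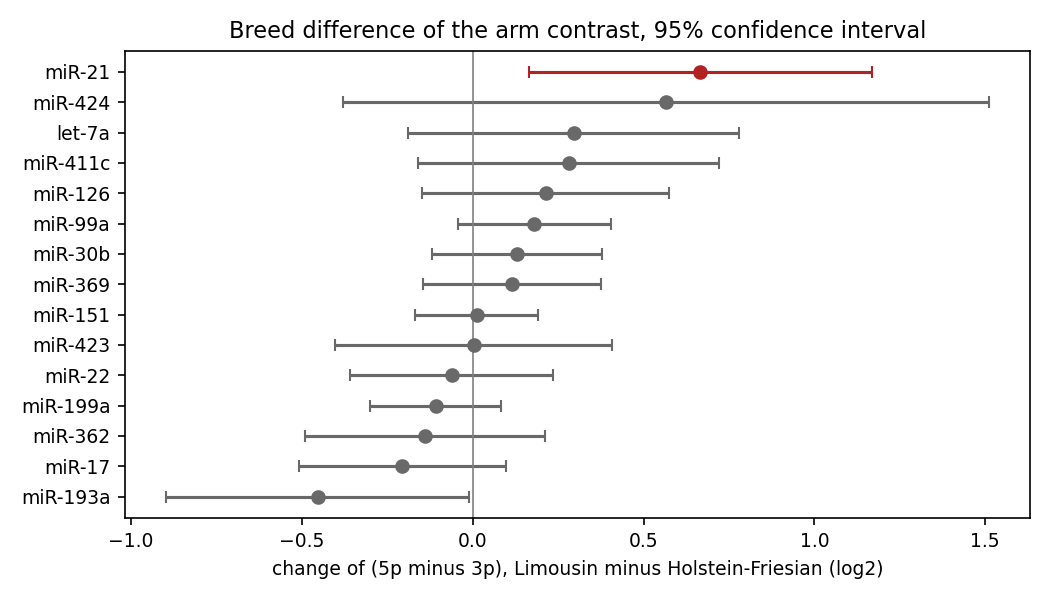
Change between breeds, Limousin minus Holstein-Friesian, of the log2 5p minus 3p contrast for the 15 miRNAs with both arms tested, with 95% confidence intervals of the limma fit over these pairs. miR-21, in colour, is at 0.67 with an interval of 0.16 to 1.17; no pair passed the adjusted threshold. The miR-21 contrast rests on a miR-21-3p signal that was not detected in Holstein-Friesian.

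Over the 8 arrays, the tested miRNAs whose log2 values ran most like those of miR-21-5p were miR-218_v13.0, an older entry of miR-218 (Pearson's r = 0.92), miR-24-3p (0.92), miR-338 (0.90), miR-218 (0.88) and miR-221 (0.87). These values are descriptions over 8 arrays that share slide and scaling, and part of each r is the breed difference itself. All 5 were called higher in Limousin, by log2 differences of 0.88 for miR-218_v13.0, 0.45 for miR-24-3p, 0.58 for miR-338, 1.10 for miR-218 and 0.45 for miR-221. Of all tested miRNAs 13.8% were called higher, but the choice by r partly built such calls into these 5. Without background correction only miR-24-3p of the 5 kept its call as higher (0.47; limma adjusted p = 0.0040). In that setting miR-218_v13.0 was at 0.24 (limma adjusted p = 0.0707), miR-221 at 0.25 (0.0681), miR-338 at -0.13 (0.358) and miR-218, detected on 0 of 4 Holstein-Friesian arrays, at -0.36 (0.0432). With the probe correction miR-338 was at -0.10 (limma adjusted p = 0.415) and the other 4 kept their calls, where 9.67% of all tested miRNAs passed as higher. With the mean of each breed subtracted, the closest were miR-218_v13.0 (0.77), miR-24-3p (0.70), miR-126-5p (0.69), miR-136 (0.69) and miR-338 (0.66), so that 3 miRNAs stood in both groups of 5. The other arm, miR-21-3p, ran with miR-21-5p at r = 0.41 over all arrays and 0.38 within breeds.

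Of 10 miRNAs linked to inflammation, 6 were tested, 3 rose in Limousin and 0 fell (also 0 at an unadjusted p under 0.05 in limma), where 13.8% of all tested miRNAs rose and 28.3% fell, with a median log2 difference of 0.37 against -0.065 over all tested miRNAs. The list was chosen with earlier results of these data known, so its counts are a description and no test. The risers were miR-155, a miRNA of activated leukocytes, at 0.95 (limma adjusted p = 0.0012), miR-146b, a feedback inhibitor of NF-kB signalling in human cells, at 0.94 (limma adjusted p = 0.0012), and miR-132 at 0.79 (limma adjusted p = 0.0106), which was detected on 4 Limousin arrays and 1 Holstein-Friesian array and was at -0.33 without background correction (limma adjusted p = 0.0377). The other 3 tested did not pass, among them miR-125a at -0.35 (limma adjusted p = 0.174). Unlike that of miR-21-5p, the calls of miR-155, miR-146b and miR-132 held with probe GC content and length corrected for, at 0.82, 0.48 and 0.88 (limma adjusted p = 0.0026, 0.0096 and 0.0080). Whether they differ from miR-21-5p in this was not tested.

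Of 14 miRNAs of fibrosis and growth, all 14 were tested, 8 rose in Limousin and 0 fell (also 0 at an unadjusted p under 0.05 in limma), against the same 13.8% and 28.3% of all tested miRNAs, with a median log2 difference of 0.40. This list too was chosen with earlier results known, so its counts are a description. The largest differences were those of miR-29b, known for repressing collagen genes, at 0.84 (limma adjusted p = 0.0074), miR-192 at 0.83 (limma adjusted p = 0.0017), miR-29c at 0.67 (limma adjusted p = 0.0115) and miR-29a at 0.60 (limma adjusted p = 0.0193). Of these 4, miR-192 was detected on 0 of 4 Holstein-Friesian arrays and was at -0.38 without background correction (limma adjusted p = 0.0227). After the probe correction 3 of the 14 passed as higher, namely miR-192, miR-221 and miR-222, where 9.67% of all tested miRNAs did. Without background correction miR-221 (0.25; limma adjusted p = 0.0681) and miR-222 (0.25; limma adjusted p = 0.0616) did not pass, so that none of these 3 was called higher under both settings. With the probe correction miR-29b, whose corrected difference was 0.35 (limma adjusted p = 0.168), did not pass, like miR-21-5p.

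Markers of cell types that carry miR-21-5p were read beside it, from lists also chosen with earlier results of these data known. Of all tested miRNAs 13.8% rose and 28.3% fell, so that 42.0% passed in either direction. After the probe correction 9.67% rose, and 52 of the 269 fell. Of 6 leukocyte markers 5 were tested, and 2 rose in Limousin, miR-155 and miR-142-5p (0.56; limma adjusted p = 0.0222, and 0.16; 0.348 after the probe correction), while miR-223, miR-150 and miR-342 lay between -0.15 and 0.022 and did not pass. The summed scaled signal of the 6 was 1929 to 2303 in Limousin and 1505 to 2020 in Holstein-Friesian, and miR-142-3p was detected on 0 arrays. The brightest term of that sum was miR-142-5p, at a mean log2 signal of 10.35 in Limousin and 9.79 in Holstein-Friesian. Next came miR-342, at 8.71 and 8.84. Of 6 markers of stroma and contractile cells 3 rose, miR-199b at 0.59, miR-199a-3p at 0.47 and miR-199a-5p at 0.36, with sums of 10366 to 12320 in Limousin and 9849 to 10573 in Holstein-Friesian. The other 3 were at -0.23 for miR-145 (limma adjusted p = 0.0912), -0.064 for miR-143 and 0.0048 for miR-214. After the probe correction 0 of the 3 risers passed, at 0.017, 0.090 and 0.20, and miR-145 was called lower (-0.37; limma adjusted p = 0.0169). Of 8 tested epithelial markers, among them miR-200c, miR-141 and miR-205, 0 passed in either direction in limma (also 0 at an unadjusted p under 0.05) and the median was 0.13, with sums of 19162 to 21048 in Limousin and 18059 to 20303 in Holstein-Friesian over the 9 on the array. The 8 tested epithelial markers were thus detected in both breeds, while miR-183, the other one on the array, was detected on 0 arrays. Liver-typical miR-122 was detected on 0 arrays. Of the 4 skeletal muscle markers miR-1 was detected on 4 Limousin and 2 Holstein-Friesian arrays, miR-133b on 2 and 1, miR-133a on 1 and 0, and miR-206 on 0. The part of leukocytes or stroma in the difference of miR-21-5p was not tested.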

How the data were processed

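Per the file headers, Agilent Feature Extraction (version 10.10.1.1) made the scanner files, in which each spot's intensity had been corrected for background by the authors' software but not normalized between arrays. Per the labels' protocols, 100 ng of total RNA from each animal was labelled with Cyanine 3-pCp. The deposited table holds log2 values; to within 9.7e-06 they are Agilent's total signals per miRNA on a log2 scale less a constant for each array, with 0.1 standing for undetected signals. Its column medians ran from -9.79 to -9.04 in Limousin and from -9.32 to -8.53 in Holstein-Friesian. Each median is that array's placeholder for an undetected miRNA and not a level. The values were not centred by miRNA and run in the direction of the signal, so that scale, centring and direction are known.

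Breed and replicate came from the sample titles. Control and outlier spots were left out and the spots of a probe averaged. Detection of a probe needed a flag of well above background on over 50% of its spots. Each array was scaled to a common 75th percentile, taken over the probes that all 8 arrays detected. The floor was then set at 1, before log2. The probe with the highest mean represented a miRNA. Breed was fitted as the single term with limma 3.58.1 (lmFit, eBayes; R 4.3.3) over the 269 miRNAs that all 4 arrays of either breed detected, and p-values were adjusted over all 269 (Benjamini-Hochberg, threshold 0.05). The same fit was made over 492 probes and 15 arm pairs and was tested on simulated data. Differences are Limousin minus Holstein-Friesian.

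The probe correction fitted, on each array, the deviations of the 269 miRNAs from their means by GC content and length and subtracted the fit. The alternatives covered scaling, background, summaries, filter, floor, the deposited table, variance model, replicate block, probe correction and leaving out arrays.

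Members and lists were chosen with earlier results of these data known. Other miRNAs were named by a rule: the 5 closest to miR-21-5p by Pearson's r, over all arrays and with breed means subtracted, the list members with the largest differences, and the arm pairs with the largest changes; a few further list members were named after their values were seen. Mature sequences were not used here, so seeds were not compared. Levels of different probes were ranked only to choose a miRNA's probe and to name the brightest terms of the leukocyte sum. Of the markers, miR-378 of adipocytes and miR-203 of epithelium were not analysed here. Endothelial miR-126-3p and miR-126-5p, erythroid miR-451 and muscle miR-1 were tested and did not pass.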

Additional observations from a re-analysis of the deposited data

Results flagged for a closer look

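On the 15-base probe of miR-21-3p, Holstein-Friesian replicate 4 had 18.5% of its spots well above background, while the other 3 arrays of its breed had 0%, which put it far from the others of its group. Since those 3 shares are equal, any other value would have been set apart. The same array had the highest scaled log2 signal of miR-21-3p, 4.55, and the highest Holstein-Friesian signal of miR-21-5p, 10.18.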

How the results depend on the processing

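The difference of miR-21-5p was above 0 in all 29 alternatives, from 0.41 to 1.66, and kept its call in 26. The call ended with no filter on dim miRNAs (0.81; limma adjusted p = 0.0593, with 763 miRNAs tested), with the GC content and length correction (0.41; 0.0980), and with this correction and the replicate block together (0.41; 0.129). Leaving out 1 array gave 0.63 to 0.95, with limma adjusted p up to 0.0339. The difference of miR-21-3p passed the threshold with cyclic loess (0.55; limma adjusted p = 0.0489), spike-in scaling (0.94; 0.0027), no scaling (1.00; 0.0024), Agilent's sum over probes (2.30; 0.0471) and the deposited table (4.72; 0.0299), both of the last with placeholders for undetected signals. It changed sign with normexp (-0.59), no background correction (-0.58), the floor at the lowest detected probe (-0.66, which the detection limits of Holstein-Friesian arrays set) and array weights (-0.21; limma adjusted p = 0.350). Leaving out 1 array gave 0.042 to 0.35, the highest without Holstein-Friesian replicate 4. Since miR-21-3p was tested only through detection on Limousin arrays, none of its p-values can decide whether its level differs. The filter for detection on all 8 arrays leaves out miR-21-3p and thus the arm contrast. That contrast passed with normexp (1.36; limma adjusted p = 0.0097), no background correction (1.35; 0.0078), array weights (0.83; 0.0131) and the same floor (1.465; 0.0041, set by the same limits), and turned negative with the sum over probes (-1.51; 0.406) and the deposited table (-3.65; 0.378); leaving out 1 array gave 0.50 to 0.80. Calls of the contrast rest on the same undetected Holstein-Friesian signals of miR-21-3p and cannot decide whether it changed. The other causes were not tested.

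The count of 113 calls, 37 higher and 76 lower, became 175 with spike-in scaling (172 and 3), 174 with no scaling (172 and 2), 171 with normexp (26 and 145) and 60 with the replicate block and the probe correction. The split was 104 and 30 with the percentile over all probes, 56 and 43 with quantile, 45 and 59 with cyclic loess, 40 and 59 with median scaling, 81 and 28 with the deposited table and 27 and 142 with no background correction. Leaving out 1 array gave 71 to 148 calls, with 71 without Limousin replicate 1 and 73 without Holstein-Friesian replicate 4. Replicate numbers did not pair the samples: deviations of same-numbered arrays correlated at -0.45 to 0.31, and 1 of 4 Limousin arrays correlated best with its own number. With the replicate block miR-21-5p kept its call (0.81; limma adjusted p = 0.0156), and the count was 84.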
